A study of Mus musculus with 20 samples.

Results

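The genes described here are 10 genes of major histocompatibility complex (MHC) class I antigen presentation and its checkpoint counterpart, chosen by name out of 17104 named or numbered genes listed in the deposited tables. They are the class I light chain B2m, the heavy chains H2-K1 and H2-D1, the peptide transporter subunits Tap1 and Tap2, the loading chaperone Tapbp, the immunoproteasome subunits Psmb8 and Psmb9, the class I transactivator Nlrc5, and Cd274, which encodes PD-L1. All 10 were listed in every table. The libraries came from MycCaP-Bo cells, a bone-tropic line selected in mice from MycCaP, a Myc-driven prostate carcinoma line of the FVB strain that carries an iRFP label. The cells were injected into the heart of mice aged 4 to 6 weeks, and iRFP+ CD45- cells were sorted from the bone metastases, 3 mice per library and 5 libraries per group. The naive group was given vehicle, and the Resist group was given the anti-androgen enzalutamide at 30 mg/kg daily for 18 days. The Resist-Mac group had enzalutamide and clodronate liposomes, which deplete phagocytes, at 1 mg per mouse 2 times a week over the last 4 days. The Naive-Mac group had clodronate without enzalutamide. All mice carried cells of 1 line, so all groups share its genetic background.

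Class I molecules display peptides of cytosolic proteins to CD8 T cells. The proteasome cuts the proteins, the Tap1 and Tap2 transporter carries the peptides into the endoplasmic reticulum, Tapbp (tapasin) holds the empty heavy chain against the transporter, and B2m completes the complex. Interferon gamma exchanges the constitutive catalytic proteasome subunits for Psmb8, Psmb9 and Psmb10, and PD-L1, the ligand of PD-1, is induced by the same cytokine.

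Naive and Resist libraries belonged to batch 1, Resist-Mac to batch 2 and Naive-Mac to batch 3, so batch and condition cannot be told apart in any comparison other than Resist vs. Naive. The tables held FPKM (fragments counted on a gene, scaled to its length and to the size of the library) and no counts, so sequencing depth is not known and errors are those between libraries. The FPKM values of a library summed to between 481161 and 530961 in the first table, 617494 to 761510 in that of Resist-Mac and 882276 to 1040436 in that of Naive-Mac. These sums leave out 752 genes of the first table known only by a BGI label, which the paper also removed. Those genes held 8.445% of the FPKM in that table, and the other tables listed none. The mean of Gapdh was 5769 FPKM in Resist-Mac and 7484 FPKM in Naive-Mac libraries, whereas the lower group mean in the first table was 498 FPKM. Prostate epithelial markers were present in part: Krt8 had a mean of 107 to 317 FPKM in the 4 groups, and Foxa1 and Hoxb13 were above 1 FPKM in each, whereas Krt18 and Cdh1 stood at or near 0 and Pbsn was not listed. Of 10 T and NK cell markers 5 were listed in all tables, and these summed to at most 7.72 FPKM in any library. Neutrophil markers summed to 176 to 1270 FPKM in naive, 61.4 to 603.6 in Resist, 406 to 8774 in Resist-Mac and 58.7 to 6157 in Naive-Mac libraries. The class I genes are also expressed by leukocytes, and fewer cells of a type and less RNA per cell cannot be told apart in such libraries. A gene was tested where its mean was at least 1 FPKM, and it was called where limma's adjusted p was under 0.05 and the fold change over 1.5 on the scale of FPKM + 1.

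The promoters of the class I genes are shown because the factors that act on them are among the genes measured. RefSeq windows on build GRCm38.p6, from 250 bases before to 50 after the start of a gene, were held for 8 of the 10 genes. The following stretches run 5′ to 3′ on the strand of the gene. In capitals are the NF-kB site, the interferon regulatory factor (IRF) motif and, farther on, the letters TGACG and ATTGG with 20 bases between them. Such letters belong to the X2 and Y boxes of the SXY module, through which NLRC5 works. The stretches are H2-K1 at chr17:34000354-34000463 (minus strand), H2-D1 at chr17:35262918-35263027 (plus strand) and B2m at chr2:122147545-122147643 (plus strand).
H2-K1: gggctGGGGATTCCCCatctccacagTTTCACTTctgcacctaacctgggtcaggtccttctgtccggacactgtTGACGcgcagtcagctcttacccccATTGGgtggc
H2-D1: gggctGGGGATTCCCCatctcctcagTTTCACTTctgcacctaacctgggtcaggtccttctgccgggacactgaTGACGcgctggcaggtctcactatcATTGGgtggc
B2m: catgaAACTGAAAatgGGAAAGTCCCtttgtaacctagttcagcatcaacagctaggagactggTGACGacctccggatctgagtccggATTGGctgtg

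The IRF motif (AANNGAAA, both strands) was in the windows of 4 of the 8 genes, namely B2m, H2-K1, H2-D1 and Cd274, and in 23.9% of all 32851 promoter windows. The NF-kB site was in those of B2m, H2-K1 and H2-D1 and in 8.46% of all windows, and in the heavy chains 2 overlapping copies were read on each strand. The TGACG and ATTGG pair at that spacing was in the same 3 genes and in 31 windows of all, or 0.0944%. That spacing was set after these sequences were seen, so this share is a description and no test of the 3 genes. The H2-K1 and H2-D1 stretches were identical at 99 of 110 positions. FVB mice carry another H-2 haplotype than the reference strain, so these letters are not those of the MycCaP-Bo genome, and reads of the polymorphic heavy chains may be shared between H2-K1 and H2-D1. The windows of Tap1 and Psmb9, which are read in opposite directions, overlap over 275 bases at chr17:34187306-34187580. That stretch is given on the Tap1 strand, with the letters TGACG and the reverse of ATTGG in capitals. It held none of the 3 motifs at their full length.
Tap1 and Psmb9: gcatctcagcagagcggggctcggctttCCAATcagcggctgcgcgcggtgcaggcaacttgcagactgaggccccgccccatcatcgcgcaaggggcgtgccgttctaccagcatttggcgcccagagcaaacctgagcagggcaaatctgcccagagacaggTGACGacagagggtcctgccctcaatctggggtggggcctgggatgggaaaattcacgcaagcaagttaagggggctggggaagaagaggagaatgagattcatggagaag

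The IRF motif of Cd274 lay on the reverse strand. Its surroundings at chr19:29367243-29367290 (plus strand) read as follows, with the motif in capitals.
Cd274: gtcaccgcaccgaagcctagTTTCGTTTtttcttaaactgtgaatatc

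Of the 10 genes, the class I chains had the highest levels in the sorted cells, and Nlrc5 and Cd274 the lowest. In naive libraries the mean FPKM, which is scaled to transcript length, was 1027 ± 82.4 (SD, n = 5) for B2m, 398 ± 21.0 for H2-D1, 217.3 ± 13.01 for H2-K1, 92.2 ± 6.25 for Tapbp, 46.0 ± 3.57 for Psmb8, 38.1 ± 1.78 for Tap2, 16.1 ± 2.79 for Psmb9 and 6.88 ± 0.766 for Tap1. Nlrc5 had 0.622 ± 0.174 FPKM and Cd274 had 0.538 ± 0.144 FPKM. The ranges of neighbours in this order did not overlap, other than those of Nlrc5 and Cd274. The order was the same in the Resist group, where Psmb8 and Tap2 overlapped too. In Naive-Mac libraries Psmb8 stood above Tapbp and Psmb9 above Tap2. Tap2 was 4.73 to 6.15 times Tap1 in naive libraries although the proteins pair in the transporter, and B2m was 1.55 to 1.75 times the sum of H2-K1 and H2-D1.

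**Figure D1:**
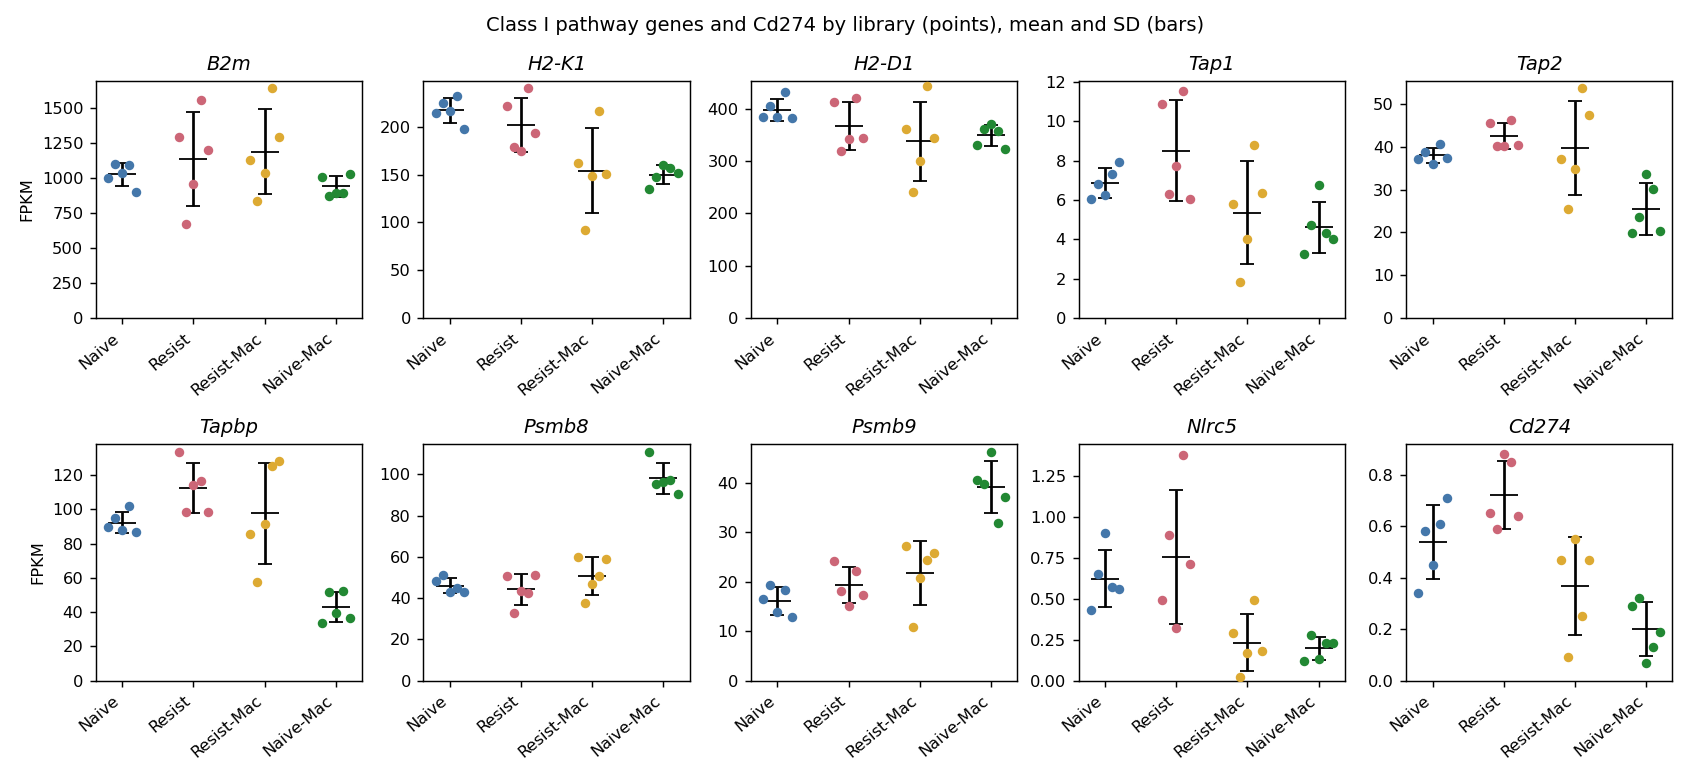
FPKM (y axes, from 0) of each of the 10 genes in the 5 libraries of each group (points), with the group mean and SD (bars). Psmb8 and Psmb9 lie higher and Tapbp lower in all 5 Naive-Mac libraries than in any other library, and Resist-Mac replicate 2 is the lowest of its group in all 10 genes.

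The question of the first comparison was whether tumors that grew under enzalutamide differ from naive tumors, and it lies within 1 table and 1 batch. None of the 8 genes that passed the filter was called between Resist and naive (0 of 8, with 6.35% of 10119 genes called). At an unadjusted p under 0.05 there were 2 of 8, Tap2 and Tapbp, beside 3496 of the 10119 genes. A noise-distribution test after NOISeq also called 0 of the 8, beside 360 of all genes. Tapbp had 89.6, 94.8, 88.0, 102 and 86.5 FPKM in the naive libraries and 133, 98.5, 114, 117 and 98.5 FPKM in the Resist libraries. The groups overlapped, since naive replicate 4 lay above Resist replicates 2 and 5. The log2 change was 0.28 (SE 0.09, adjusted p = 0.0437), under the fold limit. Tap2 changed by 0.16 (SE 0.06), with a 95% interval of 0.02 to 0.30, and did not pass the adjusted threshold.

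The class I chains did not pass the test. H2-K1 had 198 to 232 FPKM in naive and 174 to 241 FPKM in Resist libraries, and its log2 change of -0.11 had a 95% interval of -0.31 to 0.08. H2-D1 changed by -0.12 (-0.30 to 0.06). B2m spread more in Resist libraries, at 1293, 669.94, 956, 1557 and 1200 FPKM, than in naive libraries, at 898 to 1104 FPKM, and changed by 0.09 (-0.30 to 0.48). All 3 intervals lie within the fold limit, which is 0.58 on this scale. Tap1 spread alike, with 10.9 and 11.6 FPKM in Resist replicates 1 and 4 and 6.04 to 7.75 in the other 3. Its change of 0.23 had an interval of -0.11 to 0.58. Psmb9 changed by 0.25 (-0.05 to 0.55) and Psmb8 by -0.07 (-0.31 to 0.17). No gene of the 10 had groups without overlap, against 12.8% of the genes tested.

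Nlrc5 and Cd274 were below the filter and were fitted with all genes of any level, of which 3.71% were called. Nlrc5, the regulator that drives class I transcription, had 0.43 to 0.90 FPKM in naive and 0.32 to 1.38 FPKM in Resist libraries, and changed by 0.09 (SE 0.15, adjusted p = 0.732). Cd274 had 0.34, 0.58, 0.45, 0.61 and 0.71 FPKM in naive libraries and 0.65, 0.59, 0.88, 0.85 and 0.64 FPKM in Resist libraries. The ranges overlapped and the change was 0.16 (SE 0.08, adjusted p = 0.210). At such levels, the scale of FPKM + 1 understates a fold change.

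**Figure D2:**
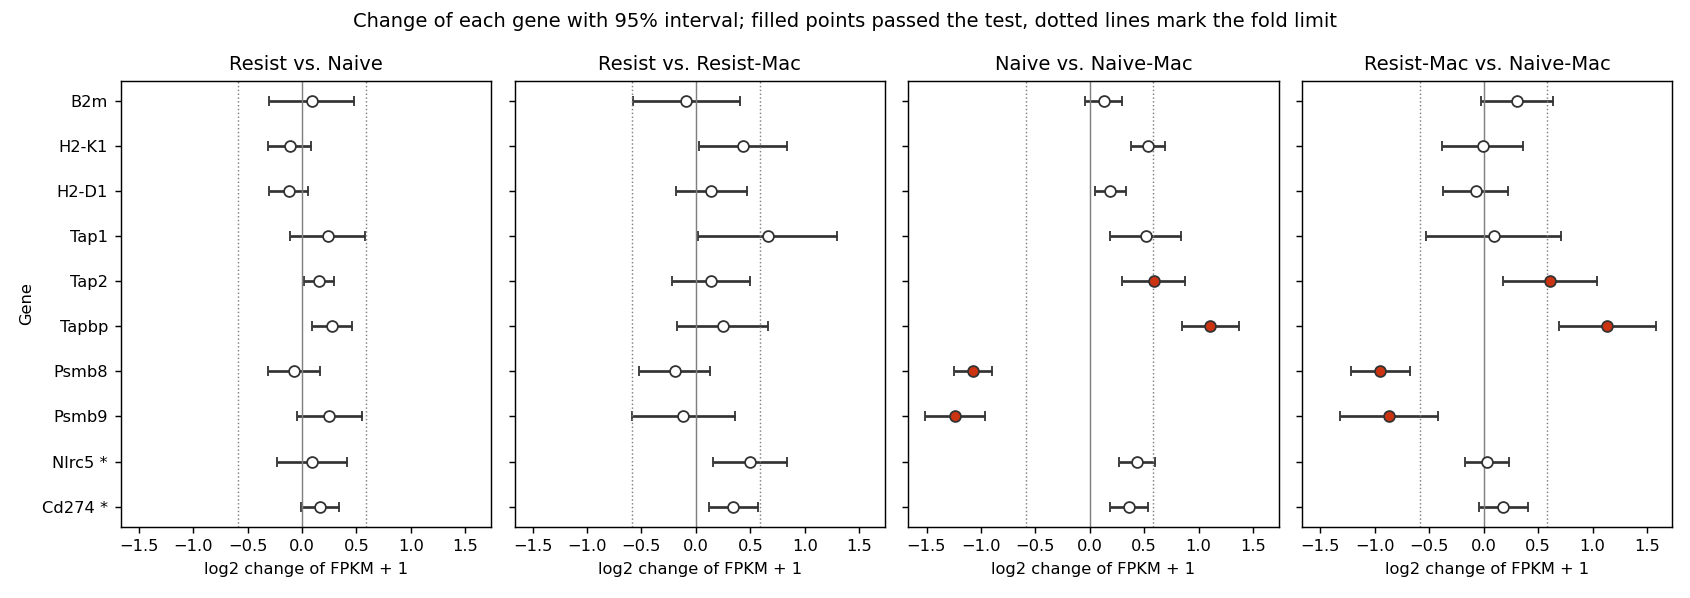
The log2 change of FPKM + 1 (x axes) of each gene (rows) in the 4 comparisons, with its 95% interval. Filled points were called and dotted lines mark a fold change of 1.5, and asterisks mark the genes fitted without the filter. No point is filled in the comparisons of Resist with naive and with Resist-Mac, and 4 are filled in each of the others.

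In the lists of genes around the 10, calls between Resist and naive are to be read beside the 6.35% of all genes. None of the 6 other loading and trimming genes was called, and their median log2 change was 0.01, beside 0.03 over all genes tested. Tapbpl, a tapasin-related editor of class I peptides, changed by 0.39 (SE 0.10, adjusted p = 0.0237), below the fold limit, and Canx, a chaperone of new heavy chains, by -0.05. None of the 4 genes of the other immunoproteasome subunit and the proteasome activator was called. Psmb10, the remaining inducible catalytic subunit, changed by 0.44 (SE 0.12, adjusted p = 0.0259), and Psme1, an activator subunit, by 0.33 (SE 0.07, adjusted p = 0.00640). The 14 constitutive 20S genes had a median of -0.20 with none called, and all 14 had values below 0. Psmb3 had the largest value in size, -0.31, and Psma5 had -0.26. Of 17 other class I heavy chains 4 were high enough to be tested and none was called. H2-Q4 had the largest change, 0.44 (adjusted p = 0.0458), and H2-M3 the next, 0.16.

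Upstream of the class I genes, none of 12 transcription factors was called. Rfx5, which binds the X box of the SXY module, changed by 0.41 and Creb1 by -0.20. Irf1, an interferon-induced activator of class I promoters, had 25.8 ± 7.35 FPKM in naive and 30.5 ± 14.5 FPKM in Resist libraries (log2 change 0.18, adjusted p = 0.641). Among 11 tested genes of the interferon receptors and the Jak-Stat pathway, 1 was called. Socs3, a feedback inhibitor of cytokine receptors, rose with a log2 change of 1.06 (SE 0.24, adjusted p = 0.00978). Of these 11 genes 10 had values above 0, 8 had an unadjusted p under 0.05 and 3 an adjusted p under 0.05, beside 3496 and 1915 of the 10119 genes tested, and the median was 0.26. Among 19 tested interferon-stimulated genes 1 was called, Irf8, which rose by 0.92 (SE 0.16, adjusted p = 0.00311), and 18 were not called. Of these 19 genes 16 had values above 0, beside 5673 of the 10119 genes tested, and the median was 0.23, beside 0.03. An unadjusted p under 0.05 was reached by 3 of the 19 and an adjusted p under 0.05 by 2. Irf8 is also a transcription factor of myeloid cells. In this comparison 5 of 6 tested leukocyte and macrophage markers and 8 of 8 neutrophil markers had values below 0, with none called. The source of the Irf8 change was not tested. Ifng itself was not listed in the table of naive and Resist libraries. Of 8 tested checkpoint ligands and PD-L1 partners 1 was called, Vtcn1, which encodes the B7 family ligand B7-H4. Vtcn1 rose from 2.96 ± 1.37 FPKM to 7.46 ± 2.73 FPKM (log2 change 1.10, SE 0.25, adjusted p = 0.0113). Its mean was above that of Cd274 in both groups, which was 0.538 FPKM in naive and 0.722 FPKM in Resist libraries. Cmtm6, which stabilises PD-L1 at the cell surface, had 18.5 ± 1.32 FPKM in naive and 20.4 ± 1.35 FPKM in Resist libraries and was not called.

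Within a library, the ratio of an inducible to its constitutive catalytic subunit does not depend on how that library was scaled. The ratio of Psmb8 to Psmb5 was 0.256 to 0.356 in naive and 0.283 to 0.364 in Resist libraries. It was 0.106 to 0.226 in Resist-Mac and 0.147 to 0.182 in Naive-Mac libraries. So this ratio was lower in all 10 clodronate libraries than in any of the 10 others. The ratio of Psmb9 to Psmb6 showed no such gap, with 0.102 to 0.161 in naive, 0.134 to 0.203 in Resist, 0.0482 to 0.170 in Resist-Mac and 0.0906 to 0.154 in Naive-Mac libraries. The ratio of Psmb10 to Psmb7 was 0.0700 to 0.103 in naive and 0.0915 to 0.170 in Resist libraries, with only Resist replicate 5 inside the naive range. It was 0.0662 to 0.121 in Resist-Mac and 0.0788 to 0.116 in Naive-Mac libraries. These ratios are descriptions and were not tested, and between batches they compare transcripts of different lengths.

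**Figure D3:**
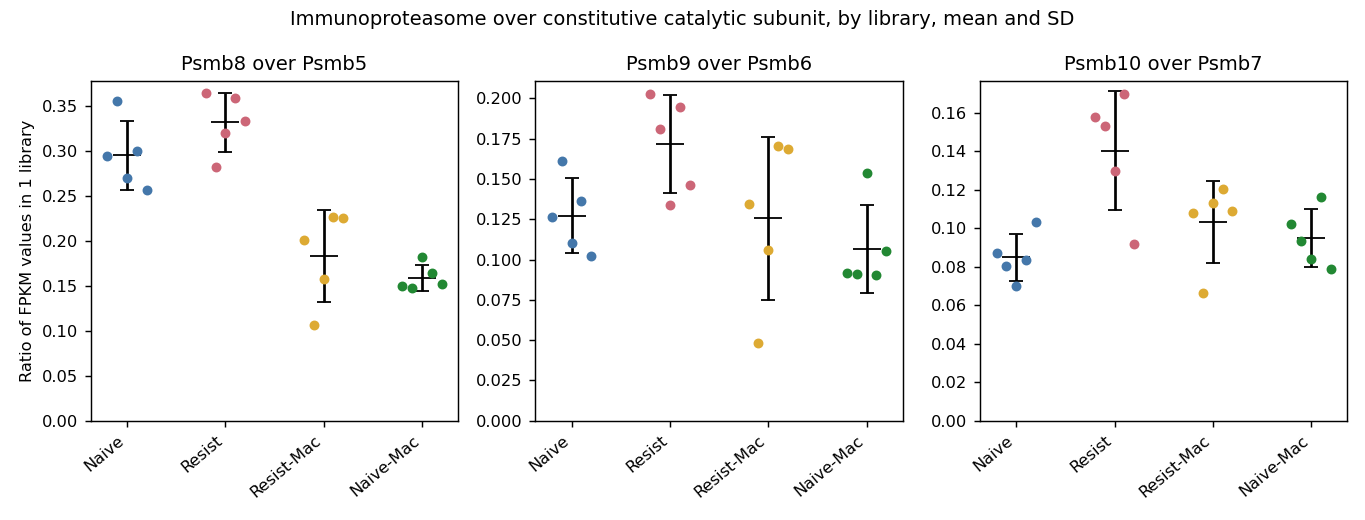
The ratio of FPKM of each immunoproteasome catalytic subunit to its constitutive counterpart (y axes, from 0) in every library (points) with the mean and SD of the 5 libraries of a group (bars). For Psmb8 over Psmb5 the naive and Resist libraries sit above 0.256 and the clodronate libraries below 0.226.

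The next comparison asked how tumor cells of resistant metastases differ with and without macrophage depletion. Between Resist and Resist-Mac none of the 8 genes was called (0 of 8, against 21.7% of 10049 genes). At an unadjusted p under 0.05 there were 2 of 8, Tap1 and H2-K1, beside 5184 of the 10049 genes. The noise-distribution test called 0 of the 8, beside 1079 of all genes. Tap1 had 10.9, 6.32, 7.75, 11.6 and 6.04 FPKM in Resist and 5.77, 1.81, 4.00, 8.77 and 6.37 FPKM in Resist-Mac libraries. The groups overlapped, and the log2 change of 0.66 (SE 0.30, adjusted p = 0.0891) missed the threshold. The change was 0.39 without Resist-Mac replicate 2 and 0.84, then called, without Resist-Mac replicate 4. Tap1 was also called with the replicate block, with all 4 groups in one fit and when each library was rescaled to the same total (1.13). H2-K1 had 174 to 241 FPKM in Resist libraries and 162, 92.1, 149, 217 and 150.5 FPKM in Resist-Mac libraries, with a change of 0.43 (SE 0.19, adjusted p = 0.0800). Its change was 0.26 without Resist-Mac replicate 2. H2-K1 was called under quantile normalization (0.82), when rescaled (0.90) and with a transcript length and GC correction (0.74). B2m changed by -0.09, H2-D1 by 0.14, Tap2 by 0.14, Tapbp by 0.25, Psmb8 by -0.20 and Psmb9 by -0.12, each with an adjusted p over 0.30. Without Resist-Mac replicate 2 the change was 0.03 for H2-D1, 0.07 for Tapbp and -0.0047 for Tap2. H2-D1 was called under quantile normalization (0.69) and when rescaled (0.61), and rescaling also called Tap2 (0.60), Tapbp (0.71) and Cd274 (0.69). Over all genes, quantile normalization called 1815 of 10047, rescaling 3830 of 10541 and the length and GC correction 879 of 10027.

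Resist-Mac replicate 2 had the lowest value of its group in all 10 genes, among them 0.02 FPKM of Nlrc5, 0.09 FPKM of Cd274 and 10.9 FPKM of Psmb9. Its neutrophil marker sum, 998 FPKM, was the second lowest of the 5.

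Nlrc5 and Cd274 were lower in Resist-Mac than in Resist libraries. Fitted with all genes of any level, of which 15.5% were called, both had an adjusted p under 0.05 and stayed under the fold limit on the scale of FPKM + 1. Nlrc5 had 0.49, 0.89, 0.32, 1.38 and 0.71 FPKM in Resist and 0.29, 0.02, 0.17, 0.49 and 0.18 FPKM in Resist-Mac libraries. Only Resist replicates 1 and 3 lay within the reach of the highest Resist-Mac library, and the log2 change was 0.50 (SE 0.15, adjusted p = 0.0328). Cd274 had 0.59 to 0.88 FPKM in Resist and 0.47, 0.09, 0.55, 0.25 and 0.47 FPKM in Resist-Mac libraries. The groups did not overlap, as in 29.7% of the genes that passed the filter, and the change was 0.34 (SE 0.10, adjusted p = 0.0261). With a pseudocount of 0.1 the change of Nlrc5 was 1.43 and that of Cd274 0.93. With the length and GC correction that of Nlrc5 was 0.11 and that of Cd274 0.38. Nlrc5 has a long transcript, of 7578 bases, and the median change in the longest of 10 equal bins of genes by transcript length was 0.58 in this comparison.

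The same comparison in naive tumors gave more calls, in both directions. Between Naive and Naive-Mac 4 of 8 genes were called, against 59.7% of 9837 genes. Psmb8 and Psmb9 were lower, and Tap2 and Tapbp higher, in naive libraries. Psmb9 had 16.4, 19.3, 13.8, 18.3 and 12.8 FPKM in naive and 40.6, 39.8, 46.1, 31.9 and 37.1 FPKM in Naive-Mac libraries (log2 change -1.24, SE 0.13, adjusted p = 1.04e-06). Psmb8 had 42.8 to 51.0 FPKM in naive and 90.5 to 111 FPKM in Naive-Mac libraries (-1.08, SE 0.08, adjusted p = 4.67e-08). Neither pair of groups overlapped. When each library was rescaled to the same total, both lost the call (-0.41 for Psmb9 and -0.23 for Psmb8).

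Tapbp had 86.5 to 102 FPKM in naive and 33.7, 51.6, 39.7, 52.6 and 36.8 FPKM in Naive-Mac libraries, a change of 1.11 (SE 0.12, adjusted p = 1.90e-06). Tap2 had 36.1 to 40.7 FPKM in naive and 19.9, 23.5, 33.7, 30.1 and 20.4 FPKM in Naive-Mac libraries, a change of 0.59 (SE 0.13, adjusted p = 0.00130). The groups did not overlap for either gene. The call of Tap2 was lost with median-ratio scaling (0.28), quantile normalization (0.56), the length and GC correction (-0.0077) and the noise-distribution test. It was also lost without naive replicate 2 or 4 or without Naive-Mac replicate 1, 2 or 5. Tap1, whose promoter window overlaps that of Psmb9 as shown above, changed by 0.51 (SE 0.15, adjusted p = 0.00682), under the fold limit, and by -0.13 under quantile normalization. Without Naive-Mac replicate 3 Tap1 was called as well. H2-K1 changed by 0.53 (SE 0.07, adjusted p = 1.37e-05) and H2-D1 by 0.19 (SE 0.07, adjusted p = 0.0200), both without reaching the fold limit. B2m changed by 0.13 (-0.04 to 0.30). All 3 chains were called under quantile normalization, with 1.23 for H2-K1, 1.10 for H2-D1 and 1.24 for B2m. They were also called when rescaled, with 1.39, 1.05 and 0.99 in that order. Over all genes, quantile normalization called 5505 of 9888, rescaling 7113 of 10326 and the length and GC correction 3561 of 9655. With the length and GC correction H2-K1 (0.87) and B2m (1.71) were called, whereas median-ratio scaling gave -0.13 for H2-D1 and -0.19 for B2m, not called. Of the 8 genes 6 had groups without overlap, among 66.0% of all genes tested, counting H2-K1, H2-D1, Tap2, Tapbp, Psmb8 and Psmb9. In the fit of all genes of any level, of which 40.3% were called, Nlrc5 changed by 0.43 (SE 0.07, adjusted p = 0.000400) with 0.12 to 0.28 FPKM in Naive-Mac libraries. Cd274 changed by 0.36 (SE 0.08, adjusted p = 0.00234) with 0.07 to 0.32 FPKM in Naive-Mac libraries, and for both genes all naive libraries lay above all Naive-Mac libraries. With a pseudocount of 0.1 both were called, at 1.28 for Nlrc5 and 1.13 for Cd274, and rescaling called both as well. Over all genes of any level, the pseudocount of 0.1 called 7112 and rescaling 7411 of 15151. With the length and GC correction the change of Nlrc5 was -0.74.

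These cross-batch values moved with transcript length. Across genes, which are not independent replicates, Spearman's rho of log2 change and transcript length was 0.71 between Naive and Naive-Mac (9655 genes with a length). It was 0.64 between Resist and Resist-Mac (10027 genes), 0.61 between Resist-Mac and Naive-Mac (9737 genes) and 0.16 between Resist and naive (9880 genes). In 10 equal bins by length, the median log2 change between Naive and Naive-Mac was -1.13 in the bin of the shortest transcripts and 1.76 in that of the longest. All 14 constitutive 20S genes, whose median transcript length was 1220 bases, were lower in naive than in Naive-Mac libraries, with a median of -1.37. The length of a gene was that of its longest listed transcript. The cells may express a shorter one, which would put the gene in another bin. Psmb8, at 1907 bases by this rule, lay 0.51 below the median of its bin, and Psmb9, at 2884 bases, lay 1.44 below. Tapbp, at 2898 bases, lay 0.90 above. H2-K1 lay 1.10 above and B2m, at 860 bases, 1.26 above. Tap1 and Tap2 lay within 0.17 of the median of their bins.

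**Figure D4:**
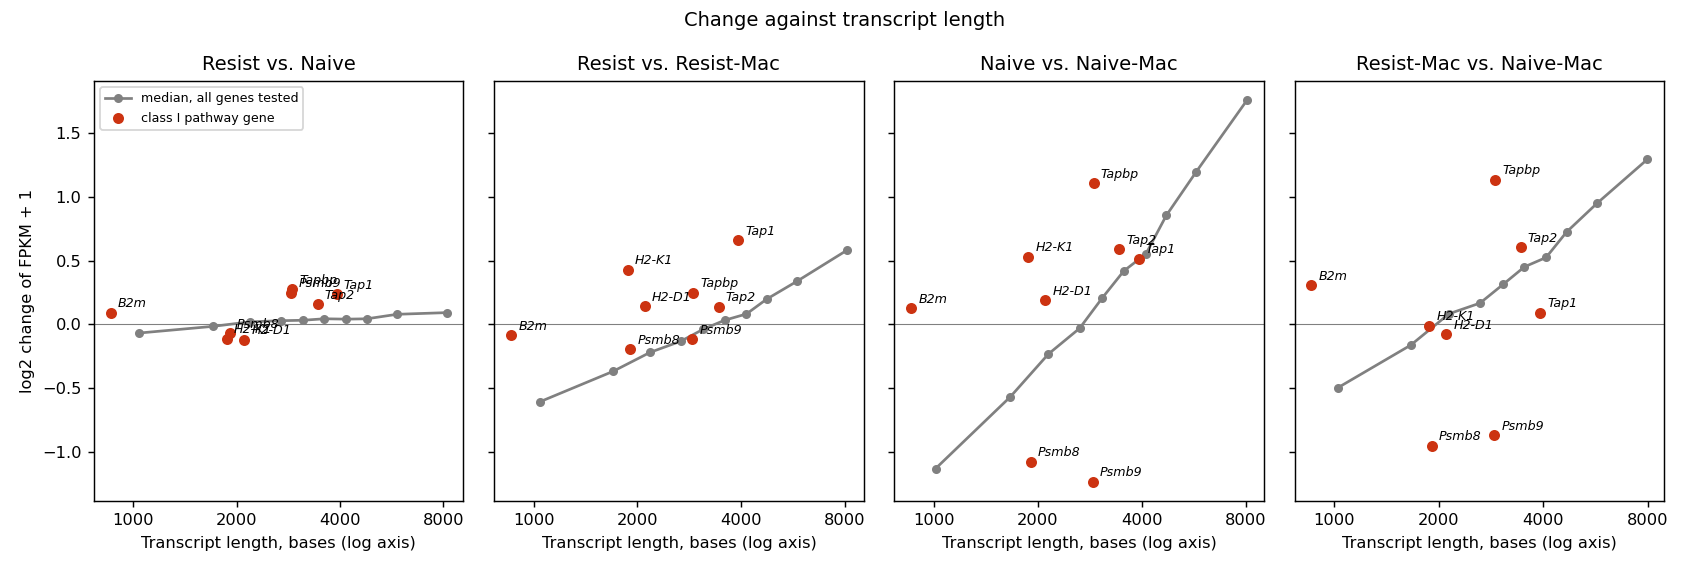
The log2 change of FPKM + 1 (y axis) against transcript length in bases (x axes, log scale) for the 8 tested genes (red), with the median of each of 10 equal bins of all tested genes by length (grey). The grey line rises from -1.13 to 1.76 between Naive and Naive-Mac and stays between -0.07 and 0.09 between Resist and naive. B2m and Tapbp lie above the line, and Psmb8 and Psmb9 below it, wherever Naive-Mac enters. H2-K1 lies 1.10 above it between Naive and Naive-Mac. Length is that of a gene's longest listed transcript, which need not be the one expressed.

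The values also moved with the scale of the libraries. The median of all genes between Naive and Naive-Mac was 0.23, and it went to -0.05 with median-ratio scaling and to 1.00 when each library was rescaled to the same total. Relative to the median of all genes, Psmb9 was -1.49 to -1.30 and Psmb8 -1.34 to -0.73 over the deposited values, 3 other scalings and the length and GC correction, and Tapbp was 0.77 to 1.46. H2-K1 was 0.27 to 1.31. The signs of B2m (-0.14 to 1.69), H2-D1 (-0.08 to 1.17), Tap1 (-0.30 to 0.30), Tap2 (-0.03 to 0.64) and Nlrc5 (-0.73 to 0.41) changed among them.

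Myeloid transcripts had higher sums in some clodronate libraries. Between Naive and Naive-Mac, where 59.7% of all genes tested were called, 1 of 6 tested leukocyte and macrophage markers was called. Of the neutrophil markers 2 of 9 were called, and all the called markers were lower in naive libraries. Between Resist and Resist-Mac, where 21.7% of all genes were called, 4 of 8 and 6 of 10 were called, all lower in Resist libraries. Their part in the class I values was not tested. In Naive-Mac replicate 2 the 16 leukocyte and macrophage markers summed to 7.75 FPKM, the lowest of the group, which reached 621 FPKM, and neutrophil markers to 58.7 FPKM. That library had 95.2 FPKM of Psmb8, 39.8 of Psmb9 and 51.6 of Tapbp, within the range of the other 4. This is 1 library picked by its marker sum, and a relation of marker sums and class I genes over the libraries was not tested. Class II genes, which mark antigen-presenting cells, summed to 0.82 FPKM in it, and to at most 28.5 FPKM in any library.

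The last comparison set resistant against naive tumors when both had been depleted of macrophages. Between Resist-Mac and Naive-Mac 4 of 8 genes were called, against 46.2% of 9760 genes, and they had the signs seen for Naive against Naive-Mac. The comparisons share the Naive-Mac libraries, so their values stand side by side and no more. Psmb9 had 27.1, 10.9, 20.7, 24.4 and 25.8 FPKM in Resist-Mac libraries, all below the 31.9 to 46.1 of Naive-Mac (-0.87, SE 0.21, adjusted p = 0.00256). Psmb8 had 37.7 to 59.9 FPKM in Resist-Mac libraries (-0.95, SE 0.13, adjusted p = 2.93e-05). Tapbp had 85.7, 57.5, 91.2, 126 and 128 FPKM (1.13, SE 0.21, adjusted p = 0.000357). For these 3 genes the groups did not overlap, as in 47.8% of all genes tested. Tap2 changed by 0.61 (SE 0.20, adjusted p = 0.0172) with overlap, and its change was -0.06 with the length and GC correction. Its call was lost without Resist-Mac replicate 4 or 5 or Naive-Mac replicate 1 or 5. Those of Psmb8 and Psmb9 were lost when each library was rescaled to the same total. B2m changed by 0.31, Tap1 by 0.09, H2-K1 by -0.01 and H2-D1 by -0.08, each with an adjusted p over 0.10. In the fit of all genes of any level, of which 33.5% were called, Nlrc5 changed by 0.03 and Cd274 by 0.18, neither called.

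The heavy chain ratio differed between tables too. H2-D1 was 1.78 to 1.94 times H2-K1 in naive and 1.75 to 1.96 times in Resist libraries. It was 2.02 to 2.61 times in Resist-Mac and 2.14 to 2.46 times in Naive-Mac libraries, above all 10 libraries of batch 1.

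Whether macrophage depletion moved a gene unequally in resistant and naive tumors was tested over all 20 libraries as the difference of both changes, with 40.7% of 9876 genes called. Psmb9 differed by 1.12 (SE 0.26, adjusted p = 0.00137), Psmb8 by 0.88 (SE 0.17, adjusted p = 0.000249) and Tapbp by -0.86 (SE 0.24, adjusted p = 0.00494). Tap2 differed by -0.45 (adjusted p = 0.0955), and the differences of B2m (-0.21), H2-K1 (-0.10), H2-D1 (-0.05) and Tap1 (0.14) were not called. The call of Tapbp was lost with median-ratio scaling and with the length and GC correction, and that of Psmb8 when each library was rescaled to the same total. Without Resist-Mac replicate 2 Tap2 was called too. Both depleted groups came from batches of their own.

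The remaining variation within groups was shared by most of the genes. After the group mean was taken from log2(FPKM + 1), the 45 pairs of the 10 genes had a median Pearson r of 0.55 over the 20 libraries, from -0.06 to 0.94, and 24 pairs were above 0.5. H2-K1 and H2-D1 had the highest r, 0.94, followed by H2-D1 and Tap1 at 0.92 and by H2-K1 and Tap1 at 0.87. Cd274 had lower r with the others, 0.03 to 0.37, and the r of Nlrc5 with them was -0.06 to 0.60. Both genes had means below 1 FPKM in each group, where a low r cannot be told from noise. The median r of each of the 10 genes with all genes ranked was between -0.04 and 0.33. The points share libraries, and much of the variation lay in the Resist-Mac group: without its 5 libraries the median over the pairs fell to 0.23, and without Resist-Mac replicate 2 alone it was 0.37.

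**Figure D5:**
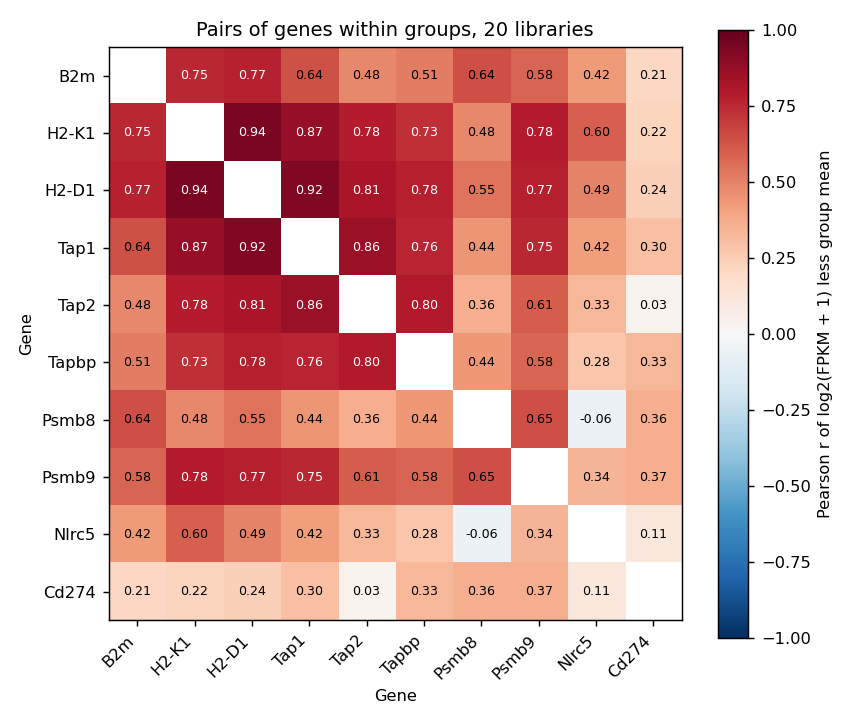
Pearson r (colour and number) of each pair of the 10 genes over 20 libraries, from log2(FPKM + 1) less the group mean. The block from B2m to Tapbp holds r of 0.48 to 0.94, and the rows of Nlrc5 and Cd274 are paler.

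The genes most like a member in this respect, among 8745 with a mean of at least 1 FPKM in each group, were as follows. For H2-K1 they were H2-D1 (0.94), Slc45a3 (0.92), an identifier that the name table did not match, 14980 (0.92), Lgals3bp (0.89) and Zfp36 (0.88). For Tap1 they were the identifier 14980 (0.93), H2-D1 (0.92), Pgap6 (0.92), Igsf9 (0.91) and Zfp36 (0.91). For Cd274 they were Cdk2ap2 (0.80), Cnot3 (0.79), Apoa1 (0.77), H3c13 (0.76) and 5730409E04Rik (0.74).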

How the data were processed

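RNA from sorted MycCaP-Bo cells was sequenced by the study in 20 libraries, 5 per group, each from 3 pooled mice. The authors deposited log2(FPKM + 1) values for the naive and Resist libraries, which were turned back to FPKM, and linear FPKM values for the Resist-Mac and Naive-Mac libraries, in separate tables. Bowtie2 and mm9 are named in the submitters' processing notes, and the counting tool is not given in the sources used here. Each comparison was fitted with limma 3.58.1 (R 4.3.3, trend) on log2(FPKM + 1) over the genes whose mean reached 1 FPKM, with Benjamini-Hochberg adjustment over all of them, and a call needed an adjusted p below 0.05 with a change of more than 1.5 times. Only the groups compared entered a fit, and all 20 libraries entered that of the difference. The script was tested on simulated data. The members and lists were chosen with earlier results of these data known. All 10 members were named, and from each other list the genes called between Resist and naive or else the 2 with the largest changes. Irf1 and Cmtm6 were added after their values were seen, and so were the motif spacing and the correlations without libraries. Libraries were taken as replicates, and no paired structure was given. The noise-distribution test was written after the description of NOISeq, which was not installed. Lengths were those of the longest GENCODE vM21 transcript of each gene, of any kind, and promoters came from RefSeq. Alternatives were another pseudocount, filter, scaling, fold limit and variance prior, a replicate block, a length and GC correction, 1 fit of all groups, the noise-distribution test and each library left out.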

Additional observations from a re-analysis of the deposited data

Results flagged for a closer look

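Limma's test of the difference between Resist against Resist-Mac and Naive against Naive-Mac called 3 of the 8 genes tested. That is close to the 40.7% of all genes called, so the count does not set these genes apart. On the log2 scale Psmb9 differed by 1.12, Psmb8 by 0.88 and Tapbp by -0.86. The call of Tapbp was lost with median-ratio scaling and with the length and GC correction, and that of Psmb8 when each library was rescaled to the same total. Batch and condition cannot be told apart in these values.

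In 64 groups of 5 libraries a sample far from the others was sought, of which chance gives about 1 in 20, and 2 were found. The ratio of Psmb9 to Psmb6 was 0.154 in Naive-Mac replicate 3 and 0.0906 to 0.105 in the other 4 libraries. The ratio of Psmb10 to Psmb7 was 0.0662 in Resist-Mac replicate 2 and 0.108 to 0.121 in the other 4 libraries.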

How the results depend on the processing

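Of 118 recomputed counts of called genes 109 stayed within 1.5 times the reported one. For Resist against Resist-Mac, with 0 called, there were 2 of 8 under quantile normalization, beside 1815 of 10047 genes. When rescaled to the same total there were 6 of 9, beside 3830 of 10541 genes. With the replicate block there was 1 (Tap1, adjusted p = 0.0237 by limma), beside 2228 of 10049 genes. The length and GC correction gave 1, beside 879 of 10027 genes. All groups in one fit gave 1, beside 2230 of 9876 genes, and a library left out gave 0 to 1. For Resist-Mac against Naive-Mac, with 4 called, there were 1 at a fold over 2 and 2 by the noise-distribution test. Over all genes these called 2335 and 1455 of 9760. For the difference, with 3 called, there was 1 at a fold over 2, beside 1929 of 9876 genes. Same-numbered libraries did not deviate together in every pair (r from -0.38 to 0.36), so the numbers do not pair them. The median correlation over pairs, 0.55, was 0.23 without the Resist-Mac libraries and 0.37 without Resist-Mac replicate 2, alternatives chosen after seeing the data.

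Signs turned as follows, on the log2 scale; the cause was not tested. Between Resist and naive, Nlrc5 was -0.0441 by quantile and -0.0246 with the length correction. Between Resist and Resist-Mac, B2m was 0.53 by quantile, 0.38 rescaled and 0.75 with the length correction, Psmb8 0.26 rescaled and 0.11 with the length correction, and Psmb9 0.34 rescaled. Between Naive and Naive-Mac, B2m was -0.19 and H2-D1 -0.13 by median-ratio scaling, Tap1 -0.13 by quantile, and with the length correction Tap1 was -0.28, Tap2 -0.0077 and Nlrc5 -0.74. Between Resist-Mac and Naive-Mac, median-ratio scaling gave -0.16 for B2m, -0.29 for Tap1 and -0.0531 for Nlrc5, quantile gave 0.25 for H2-K1, 0.37 for H2-D1, -0.59 for Tap1, -0.24 for Nlrc5 and -0.13 for Cd274, rescaling gave 0.44 for H2-K1 and 0.37 for H2-D1, the length correction gave -0.69 for Tap1, -0.0646 for Tap2, -0.92 for Nlrc5 and -0.10 for Cd274, the noise-distribution test gave 0.038 for H2-K1, and a pseudocount of 0.1 gave -0.000892 for Nlrc5. With a library left out, B2m ranged from -0.0365 to 0.27, Psmb8 from -0.13 to 0.0315 and Nlrc5 from -0.0243 to 0.19 between Resist and naive. B2m ranged from -0.22 to 0.0888 and Tap2 from -0.0047 to 0.26 between Resist and Resist-Mac. H2-K1 ranged from -0.15 to 0.16, H2-D1 from -0.18 to 0.0399, Tap1 from -0.0946 to 0.35 and Nlrc5 from -0.0434 to 0.0933 between Resist-Mac and Naive-Mac. Over all genes, calls went from 643 to 219 at a fold over 2, 392 at a mean of 5 FPKM and 360 by the noise-distribution test between Resist and naive. They went from 2181 to 3830 rescaled, 481 at a fold over 2, 879 with the length correction and 1079 by the noise test between Resist and Resist-Mac, from 5868 to 3659, 3561 and 3627 under the last 3 between Naive and Naive-Mac, from 4509 to 2335, 2560 and 1455 between Resist-Mac and Naive-Mac, and from 4015 to 1929 and 2376 under the first 2 of these for the difference. The share of calls that were higher went from 62.9% to 48.2% (median-ratio) and 93.0% (rescaled) between Naive and Naive-Mac, from 80.5% to 48.4% and 96.2% between Resist-Mac and Naive-Mac, from 44.8% to 93.7% rescaled and 55.0% by quantile between Resist and Resist-Mac, and from 82.6% to 70.1% by quantile between Resist and naive.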
